A study of Mus musculus with 2 samples.

Results

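Cholesterol and isoprenoid synthesis was followed through 8 mouse genes: Idi1, Sc5d, Hmgcs1, Sqle, Fdps, Fdft1, Cyp51 and Insig1. A gene was represented by the probes that the platform annotation assigns to its symbol. On this basis 6 of the 8 genes had a probe, 1 each, and all 6 were measured, among 13633 measured named genes. The expression of Hmgcs1 and Fdps was not analysed here.

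RNA came from the hippocampus of wild-type mice, of AtrxdE2 mice and of AtrxdE2 mice given TMPyP4. AtrxdE2 is a mutant allele, written AtrxΔE2 in the sample titles, of Atrx, the gene of a chromatin remodeller, and TMPyP4 is a porphyrin that binds G-quadruplex DNA. TMPyP4 was injected intraperitoneally at 30 mg/kg, with 2 injections per week from postnatal day 30 to day 90. Each RNA was a pool from 5 mice, and 1 two-colour array was hybridised for each comparison, with wild type in Cy5 and the mutant pool in Cy3. The labels leave out the age at dissection, the sex, any vehicle given to the untreated groups and the cells in which the allele acts. Nor do the labels say whether the same wild-type pool was used on both arrays.

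The mevalonate pathway builds isoprenoid units from acetyl-CoA. These units are joined to farnesyl diphosphate, which either enters sterol synthesis through squalene or supplies prenyl groups, dolichol and coenzyme Q. Adult brain makes its own cholesterol, since lipoproteins hardly cross the blood-brain barrier, and myelin holds much of it. When sterols in the endoplasmic reticulum run low, SCAP carries SREBP2 to the Golgi for cleavage, and the released factor raises transcription of the pathway's enzymes. INSIG proteins hold SCAP back when sterols are plentiful.

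Promoters of 4 of the 6 measured genes were available, and they are shown because these genes are known as targets of 1 transcription factor family and their values are set side by side here. Each sequence is the 250 bases upstream of the RefSeq start in assembly GRCm38.p6, written 5′ to 3′ on the strand of the gene. Capitals mark the NF-Y box CCAAT, read as ATTGG when it lies on the other strand. The windows are chr13:8885356-8885605 on the plus strand for Idi1, chr9:42264301-42264550 on the minus strand for Sc5d, chr5:4104698-4104947 on the minus strand for Cyp51 and chr5:28071162-28071411 on the plus strand for Insig1.
Idi1: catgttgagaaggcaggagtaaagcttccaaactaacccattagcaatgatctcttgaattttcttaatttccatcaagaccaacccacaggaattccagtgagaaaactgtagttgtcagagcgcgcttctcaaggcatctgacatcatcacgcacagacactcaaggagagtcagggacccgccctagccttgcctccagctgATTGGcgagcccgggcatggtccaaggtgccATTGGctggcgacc
Sc5d: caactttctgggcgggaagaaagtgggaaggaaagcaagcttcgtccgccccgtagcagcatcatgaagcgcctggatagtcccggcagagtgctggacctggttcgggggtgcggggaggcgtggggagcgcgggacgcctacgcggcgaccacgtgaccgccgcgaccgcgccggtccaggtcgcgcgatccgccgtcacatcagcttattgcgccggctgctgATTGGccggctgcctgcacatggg
Cyp51: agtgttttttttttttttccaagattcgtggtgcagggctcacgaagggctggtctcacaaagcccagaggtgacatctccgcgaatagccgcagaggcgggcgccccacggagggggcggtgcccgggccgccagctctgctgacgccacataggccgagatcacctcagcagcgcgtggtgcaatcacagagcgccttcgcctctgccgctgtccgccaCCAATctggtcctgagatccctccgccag
Insig1: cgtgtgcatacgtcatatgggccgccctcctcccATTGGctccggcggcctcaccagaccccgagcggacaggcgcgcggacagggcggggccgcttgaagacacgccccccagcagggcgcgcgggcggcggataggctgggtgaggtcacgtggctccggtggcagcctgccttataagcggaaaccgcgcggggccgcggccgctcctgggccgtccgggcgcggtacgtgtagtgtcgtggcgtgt

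The NF-Y box occurred in all 4 windows, against 33.8% of the 32851 RefSeq promoters of the same length. Idi1 held a pair of boxes, starting 45 and 14 bases before the transcription start, and Sc5d and Cyp51 held 1 each, at 24 and 29 bases before it. The box of Insig1 lay farther out, at 216 bases. The GC box GGGCGG, searched on both strands like the others, was also found in all 4 windows, against 32.7% of all promoters. The sterol regulatory element TCACNCCAC was found in 0 of the 4 windows and in 1.05% of all promoters, which says only that these letters were not in these windows. The promoter of Hmgcs1, the synthase at the head of the pathway and 1 of 5 promoters of the set in the table, held the element once, starting 137 bases before its start. None of these motifs overlapped another in the 4 windows. G plus C made up 51.2% of the Idi1 window, 62.8% for Cyp51, 67.6% for Sc5d and 72.8% for Insig1, beside a median of 52.4% over all promoters.

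Because TMPyP4 binds G-quadruplexes, the windows were also searched on both strands for 4 runs of at least 3 G with 1 to 7 bases between them. Of these 4 genes Sc5d held such a stretch, GGGGGTGCGGGGAGGCGTGGGGAGCGCGGG, starting 144 bases before its start on the strand of the gene. Hmgcs1 held the pattern too, on the other strand, and 16.7% of all promoters did. A match to any of these patterns describes the letters and is not evidence of a bound site.

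Over all probes, the first array had a median of 42.2 units above the blank spots in wild type and 64.6 in AtrxdE2. The second array had 36.02 in wild type and 79.0 in AtrxdE2+TMPyP4. Cy3 was therefore the brighter channel on both arrays, and a signal printed below is comparable between channels only after normalization. The log2 ratios given below are normalized within each array, with the mutant over wild type. The treated pool was set against the untreated one through the difference of its ratio and the untreated ratio, since both were measured against wild type. With 1 array for each comparison there is no replicate error and no p-value. Each gene is therefore described beside the SD that the 500 genes nearest to it in signal show in the same ratio, and beside fold rules of 1.5 and 2. The wild-type channels of the arrays differed with an SD of 0.27 log2 units over the named genes, and the Cy3 channels with an SD of 0.40. Dyes were not swapped, so the effect of the dye and the effect of the genotype on a gene cannot be told apart within an array. In tissue RNA, fewer cells of a type and less RNA per cell cannot be told apart either. Atrx itself, as a check of the labels, had log2 ratios over wild type of -0.68 in AtrxdE2 and -0.36 in AtrxdE2+TMPyP4. In the authors' deposited values Atrx stood at -1.96 and -0.78. Where its probe lies relative to the changed part of the gene is not given, which limits this check.

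In AtrxdE2 hippocampus all 6 measured genes had log2 ratios below 0, from -0.94 for Idi1 to -0.25 for Fdft1, with the exception that Fdft1 stood at 0.02 when the arrays were only centred on the median of all probes. Idi1 and Sc5d were lower by at least 1.5-fold, 2 of 6 genes, beside 0.66% of all named genes. The genes of the set were chosen with earlier results of these data known. None of the 6 was lower by 2-fold, a size that 0.00734% of named genes reached. Idi1 passed 2-fold with plain subtraction (0.888% of named genes), with the smaller offset (0.066%) and in the authors' deposited values (0.792%). In the main setting none was higher by 1.5-fold, beside 0.44%, or by 2-fold, beside 0.022%. The median of the 6 was -0.36, and that of all named genes was -0.0029, with 50.7% of named genes below 0. In AtrxdE2+TMPyP4 hippocampus the median of the 6 was -0.10 beside 0.0095 for all named genes. That median turned to 0.33 with centring on all probes and to 0.19 with centring on detected probes, where the AtrxdE2 medians were -0.16 and -0.22. With centring on all probes, the median of all named genes also rose, to 0.18 in AtrxdE2+TMPyP4 and 0.066 in AtrxdE2. So these medians do not rank the pools by distance from wild type. Relative to genes of like signal under that centring, Idi1, Sc5d, Cyp51 and Insig1 stood at -0.96, -0.67, -0.37 and -0.30 in AtrxdE2. In AtrxdE2+TMPyP4 they stood nearer to 0, at 0.26, -0.14, -0.05 and 0.13. Sqle and Fdft1 stood farther from 0 there, at -0.54 and -0.32, against -0.36 and -0.25 in AtrxdE2. This split of the genes depended on the setting. Relative to like genes with the local background, Fdft1 stood at -0.029 in AtrxdE2+TMPyP4 against -0.29 in AtrxdE2. Idi1 stood there at 1.04 against -0.64. In the main setting none of the 6 passed 1.5-fold in AtrxdE2+TMPyP4, beside 0.462% of named genes lower and 0.902% higher. At 2-fold these shares were 0.0293% lower and 0.161% higher, again with none of the 6. Idi1 passed 1.5-fold with centring on all probes, at 0.72, as did 15.3% of named genes. With the local background it passed 2-fold higher, at 1.14, as did 2.43%. The 2 comparisons share wild type as the denominator, so their values are given side by side only.

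**Figure D1:**
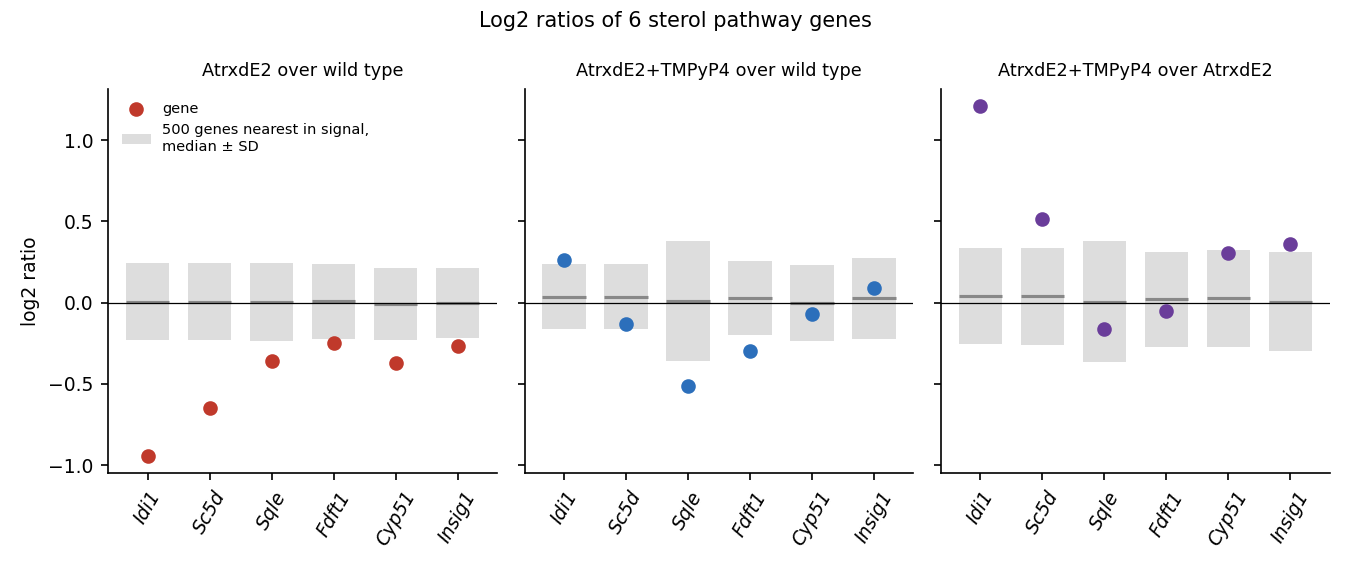
Log2 ratio of each of the 6 measured genes in the 3 comparisons, 1 array per pool, with grey bars for the median ± SD of the 500 genes nearest in signal. In AtrxdE2 over wild type all 6 points lie below 0, though Fdft1 reached 0.02 with centring on all probes, and in AtrxdE2+TMPyP4 over AtrxdE2 Idi1 stands above its bar at 1.21. The bar of Sqle is the widest in both comparisons with the treated pool, with an SD of 0.37, which single extreme genes can widen.

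Idi1 encodes isopentenyl-diphosphate isomerase, which interconverts the 5-carbon units that all isoprenoids are built from. Its signal above the blank level was 355.0 in wild type and 254.4 in AtrxdE2 on the first array. On the second array it was 271.4 in wild type and 752.2 in AtrxdE2+TMPyP4. Idi1 was the only one of the 6 genes besides Sc5d whose untreated mutant signal was below wild type in spite of the brighter Cy3 channel, and its treated signal was the highest of its 4 values.

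After normalization Idi1 was 1.92-fold lower in AtrxdE2 than in wild type, a log2 ratio of -0.94 beside an SD of 0.24 among genes of like signal. None of the 500 genes nearest in signal was lower. In AtrxdE2+TMPyP4 its ratio was 0.26, beside an SD of 0.20, and 85.0% of the genes nearest in signal lay below it. The difference of both ratios was 1.21, or 2.31-fold higher in the treated than in the untreated mutant pool, beside an SD of 0.29. Idi1 was 1 of 29 named genes (0.213%) at least 2-fold higher there, and 1 of 286 (2.1%) at least 1.5-fold higher.

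The difference in Idi1 came mainly from the Cy3 channels. The wild-type channels of both arrays, compared directly after quantile normalization, differed by -0.16 for Idi1, and the Cy3 channels by 1.07. In the authors' deposited value table, which has no loess step, Idi1 stood at -1.13 in AtrxdE2 and 0.30 in AtrxdE2+TMPyP4. Its size depended on the background. With the local background of each spot, the ratios were -0.65 and 1.14 and the difference was 1.79. The local background recorded beside the Idi1 spot was 136.1 in wild type and 120.0 in AtrxdE2. On the other array it was 291.7 in wild type and 635.1 in the treated pool. There it leaves a narrow margin to the spot itself, which read 310.9 in wild type and 856.8 in the treated pool. Over the 7 settings tried, Idi1 kept its sign in all 3 comparisons, with ratios of -1.13 to -0.65 in AtrxdE2 and 0.26 to 1.14 in AtrxdE2+TMPyP4.

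**Figure D2:**
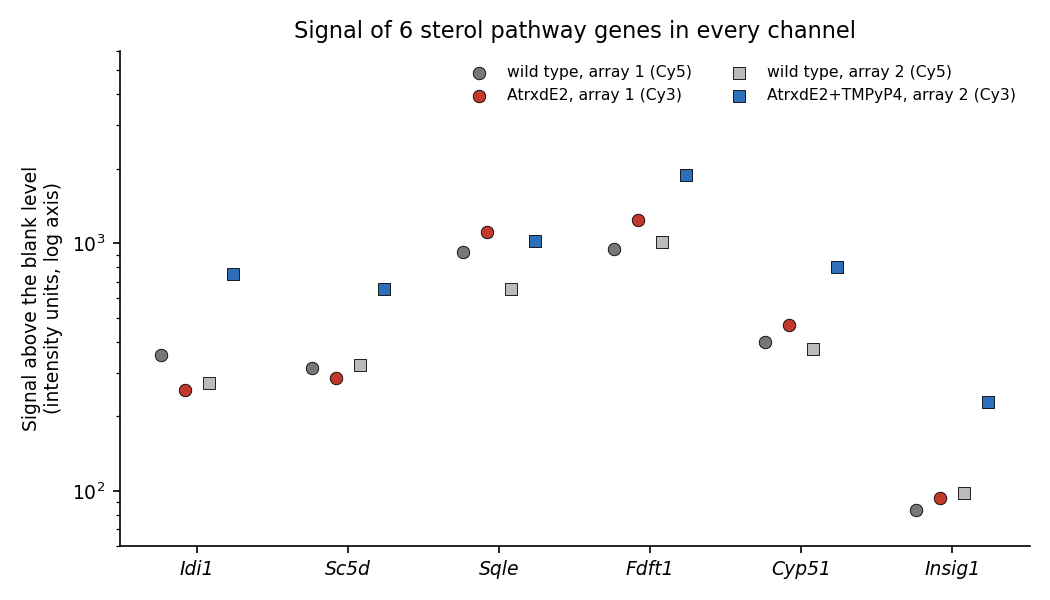
Signal above the blank level of the 6 measured genes in each of the 4 channels, on a log axis in the scanner's intensity units, before normalization between channels. Idi1 reads 355.0 in wild type and 254.4 in AtrxdE2 on the first array, and 271.4 in wild type and 752.2 in AtrxdE2+TMPyP4 on the second.

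Fdft1 encodes squalene synthase, which commits farnesyl diphosphate to sterols. Its signal was 948.2 in wild type and 1237 in AtrxdE2 on the first array, and 1013 in wild type and 1892 in the treated pool on the second. The log2 ratios were -0.25 in AtrxdE2 and -0.30 in AtrxdE2+TMPyP4, each little more than 1 SD of the genes of like signal, 0.23 in both comparisons. Fdft1 thus had nearly the same ratio in both mutant pools, with a difference of -0.05. Its sign was not stable, since AtrxdE2 gave 0.02 with centring on all probes, and AtrxdE2+TMPyP4 gave 0.27 with that centring and 0.11 with the local background.

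Sqle encodes squalene epoxidase, a rate-limiting oxygenase of the sterol branch. Its signal was 920.8 in wild type and 1110 in AtrxdE2 on the first array, and 654.2 in wild type and 1025 in the treated pool on the second. The treated pool exceeded its wild type by a smaller factor than the other 5 genes did, 1.57 before normalization. Sqle had a log2 ratio of -0.36 in AtrxdE2, beside an SD of 0.24, and of -0.52 in AtrxdE2+TMPyP4, beside an SD of 0.37. That last SD was wider than those of the other 5 genes in the same ratio, 0.20 to 0.25. Single extreme genes can widen an SD, so it may understate how far out Sqle lay, and its source was not tested. In the treated pool 1.2% of the genes nearest in signal lay below Sqle, although its ratio there turned to 0.02 when arrays were only centred on the median of all probes. Against the genes of like signal under that same centring, Sqle stood at -0.54. The difference between the mutant pools was -0.16 for Sqle, and it was 0.11 with centring on all probes.

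Cyp51 encodes lanosterol 14-alpha demethylase, the first step after lanosterol. Its signal was 399.9 in wild type and 468.4 in AtrxdE2 on the first array, and 374.0 in wild type and 805.3 in the treated pool on the second. The ratio was -0.37 in AtrxdE2, where 7.0% of the genes nearest in signal lay lower and the SD was 0.22. In AtrxdE2+TMPyP4 it was -0.07, well inside the SD of 0.23, and it turned positive, at 0.42 and 0.03, with centring on all probes and with the local background. Cyp51 was 1.23-fold higher in the treated than in the untreated pool, a difference of 0.30 beside an SD of 0.30.

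Sc5d encodes sterol-C5-desaturase, which acts near the end of the pathway. Its signal was 312.0 in wild type and 285.6 in AtrxdE2 on the first array, and 322.0 in wild type and 653.3 in the treated pool on the second. The wild-type signals of both arrays lay close together, the untreated mutant was the lowest of the 4 and the treated pool the highest. Sc5d was 1.56-fold lower in AtrxdE2, a log2 ratio of -0.65 beside an SD of 0.24, and 1.0% of the genes nearest in signal were lower. It no longer passed 1.5-fold, at -0.43, with centring on all probes, where 0.154% of named genes passed.

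In AtrxdE2+TMPyP4 the ratio of Sc5d was -0.13 beside an SD of 0.20, turning to 0.33 with centring on all probes and 0.01 with the local background. The difference between the mutant pools was 0.51, or 1.43-fold higher with treatment, beside an SD of 0.30, and 93.2% of the genes nearest in signal had a smaller one. The wild-type channels differed by 0.21 and the Cy3 channels by 0.75. In the authors' deposited value table the difference was 0.63 and passed 1.5-fold higher, as did 10.2% of named genes, beside 2.1% in the main setting. It also passed with plain subtraction (9.93% of named genes) and with the local background (8.74%). The same held with centring on all probes (7.52%) and on detected probes (4.64%).

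Insig1 encodes the endoplasmic reticulum protein that retains SCAP and whose own gene is a classic SREBP target. It had a signal of 83.9 in wild type and 93.1 in AtrxdE2 on the first array, and of 97.6 in wild type and 229.3 in the treated pool on the second. The treated pool was the highest of the 4, and the other 3 values lay close together. The log2 ratio was -0.27 in AtrxdE2 beside an SD of 0.21, and 0.09 in AtrxdE2+TMPyP4 beside an SD of 0.25. The difference was 0.36, beside an SD of 0.31, so that Insig1 was 1.28-fold higher in the treated pool. The authors' deposited value table, which applies no offset to dim spots, gave Insig1 larger values of -0.50 in AtrxdE2 and 0.56 for the difference.

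The treated pool had higher ratios than the untreated pool for 4 genes, Idi1, Sc5d, Insig1 and Cyp51, and lower ones for Sqle and Fdft1, the signs of the last pair turning to 0.11 and 0.25 with centring on all probes, and that of Fdft1 to 0.40 with the local background. The median difference of the 6 was 0.33, beside 0.015 over all named genes, of which 47.3% were below 0. None of the 6 was lower by 1.5-fold in the treated pool, beside 1.14% of named genes, or by 2-fold, beside 0.103%. The same 4 genes had Cy3 channels that differed by 0.40 to 1.07, beside an SD of 0.40 over all named genes. Their wild-type channels differed by -0.16 to 0.27, beside an SD of 0.27. For Sqle the wild-type channels differed by -0.24 and the Cy3 channels by -0.43, and for Fdft1 by 0.32 and 0.26. Between the arrays both dyes moved the same way for Sc5d, Cyp51 and Insig1 as well, and in opposite ways for Idi1.

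**Figure D3:**
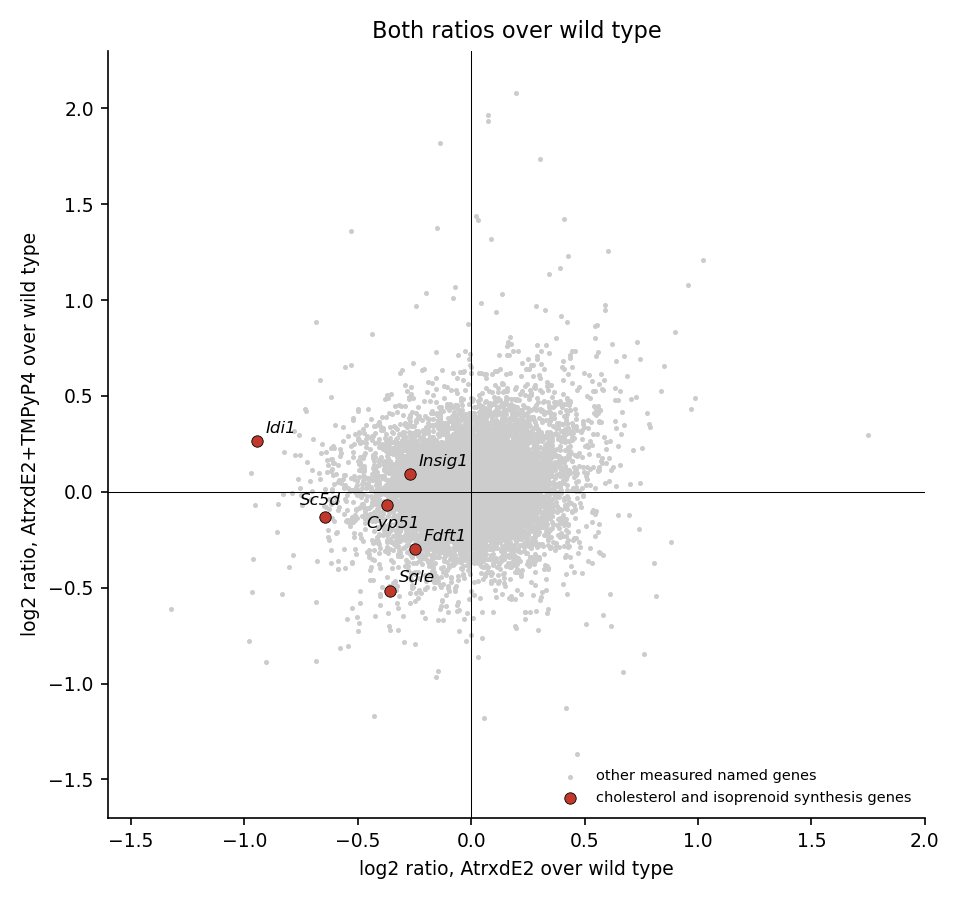
Log2 ratio over wild type in AtrxdE2 (horizontal axis) and in AtrxdE2+TMPyP4 (vertical axis) for 13633 named genes in grey and the 6 sterol pathway genes in red, with Ttr beyond the upper edge at 6.59. Both axes share the wild-type denominator, and Idi1 lies at -0.94 and 0.26, left of the main body of genes, while Sqle lies at -0.36 and -0.52; the sign of Sqle, Sc5d, Fdft1 and Cyp51 on the vertical axis turned with centring on all probes.

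Background choice and centring moved single values. Centring on the median of all probes left the median of the named genes at 0.066 in AtrxdE2 and 0.18 in AtrxdE2+TMPyP4, and bright genes higher still. Taken relative to the 500 genes nearest in signal, the AtrxdE2 ratios were below 0 for all 6 genes under each of the 7 settings. They ranged from -1.13 to -0.64 for Idi1, -0.78 to -0.65 for Sc5d, -0.44 to -0.36 for Sqle and -0.41 to -0.31 for Cyp51. Fdft1 ranged from -0.29 to -0.25 and Insig1 from -0.45 to -0.14. In AtrxdE2+TMPyP4, again relative to like genes, Sqle ranged from -0.59 to -0.53, Sc5d from -0.19 to -0.097 and Cyp51 from -0.075 to -0.050. Insig1 ranged there from 0.065 to 0.13, Fdft1 from -0.34 to -0.029 and Idi1 from 0.23 to 1.04. The ranges of Idi1 were thus as wide against genes of like signal as before.

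**Figure D4:**
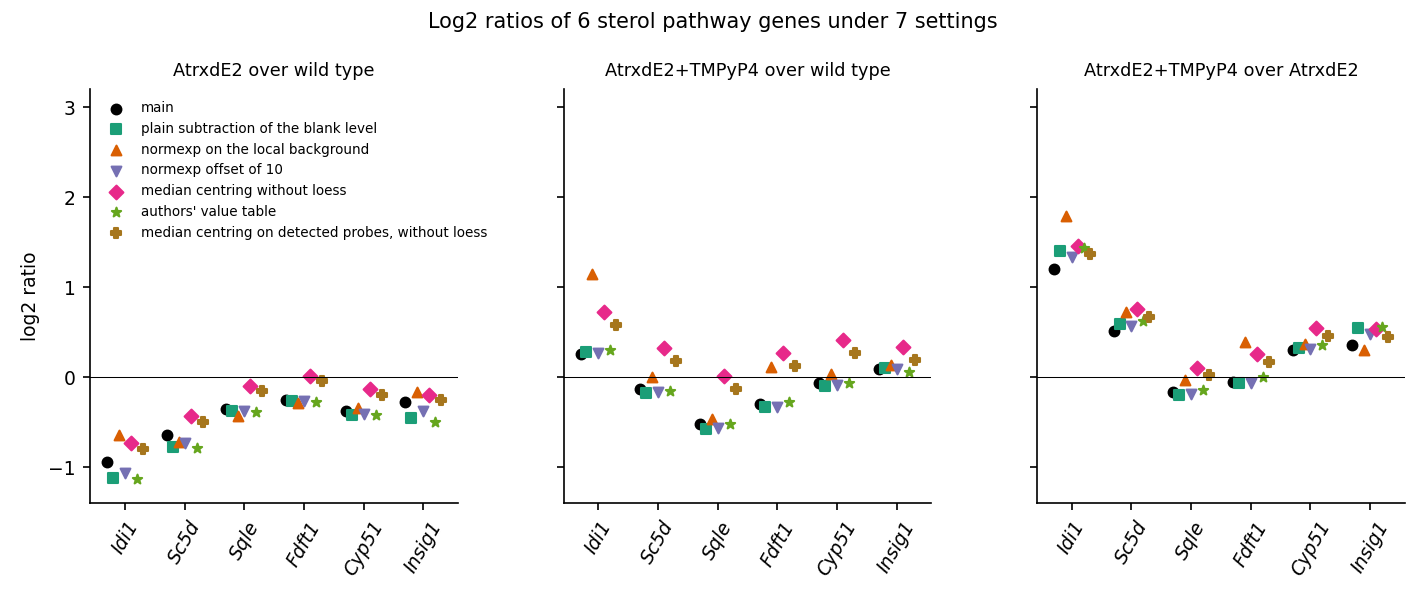
Log2 ratios of the 6 measured genes under the main setting and 6 other ways of correcting background and normalizing, with the 3 comparisons in separate panels. Idi1 spreads most, from 0.26 to 1.14 in AtrxdE2+TMPyP4, and the AtrxdE2 values of all 6 genes lie below 0 except Fdft1 at 0.02 with centring on all probes.

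The other genes of the pathway were taken from lists by function, which were drawn up with earlier results of these data known. Of the 9 listed genes of mevalonate and isoprenoid synthesis 4 were measured, and all 4 were below 0 in AtrxdE2, with a median of -0.28. Ggps1, the synthase of geranylgeranyl diphosphate, had ratios of -0.36 in AtrxdE2 and 0.26 in AtrxdE2+TMPyP4. It was the other gene of these lists at least 1.5-fold higher in the treated than in the untreated pool, with a difference of 0.62, which was 0.44 and below 1.5-fold with the local background. The upstream enzymes mevalonate kinase (Mvk) and mevalonate diphosphate decarboxylase (Mvd) had another order, with ratios of -0.19 and -0.17 in AtrxdE2 and of -0.33 and -0.30 in AtrxdE2+TMPyP4. Their differences were -0.13 and -0.12.

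Among 12 measured genes of the 13 listed from squalene to cholesterol, 7 were below 0 in AtrxdE2 and 5 above, with a median of -0.15. None besides Sc5d passed 1.5-fold in this list in the main setting. With the local background Hsd17b7 did, at 0.62 in AtrxdE2+TMPyP4 (6.29% of named genes) and 0.75 for the difference (8.74%), and Tm7sf2, at 0.61 for the difference. With centring on all probes Sc4mol did, at 0.59 in AtrxdE2+TMPyP4 (15.3%), and in the authors' deposited values Lbr, at -0.59 for the difference (6.65% lower). Ebp, the sterol isomerase just before Sc5d, was at -0.23 in AtrxdE2 and 0.05 in AtrxdE2+TMPyP4. Lbr, which has sterol reductase activity and also anchors heterochromatin at the nuclear lamina, was the highest of the list in AtrxdE2 at 0.33, was at -0.0017 in AtrxdE2+TMPyP4 and had the lowest difference of the list, -0.33. Tm7sf2, the other C14 reductase, was the highest in AtrxdE2+TMPyP4 at 0.10. Its wild-type channels differed by -0.75 between the arrays. Dhcr7, which makes cholesterol from its last precursor, had ratios of -0.14 and 0.02, with wild-type channels that differed by -0.83. The methyl sterol oxidase gene Sc4mol, now Msmo1, was at 0.10 and -0.01, and its wild-type channels differed by 0.77. Without the 6 genes described first, the other 11 genes of these lists had a median of -0.14 in AtrxdE2, with 6 below 0 and 5 above. Their medians were -0.0017 in AtrxdE2+TMPyP4 and -0.075 for the difference.

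Genes of the isoprenoid branches were measured in 12 of 13 cases, and 9 were below 0 in AtrxdE2, with a median of -0.12. This list covers prenylation, the later processing of prenylated proteins, dolichol and coenzyme Q. The lowest were D10Ertd438e, now Nus1, a subunit of the enzyme that makes dolichol chains, at -0.42, and the coenzyme Q gene Coq2, also at -0.42. The wild-type channels of Coq2 differed by -0.82. Zmpste24, the protease that trims prenylated prelamin A, was highest in AtrxdE2 at 0.31, followed by Rce1, another protease of prenylated proteins, at 0.13. Pdss2, which makes the tail of coenzyme Q, was highest in AtrxdE2+TMPyP4 at 0.35, followed by Zmpste24 at 0.16. The farnesyltransferase subunit gene Fntb and the methyltransferase gene Icmt were the lowest there, at -0.13 and -0.078. The differences ran from -0.20 for Icmt and -0.15 for Zmpste24 to 0.38 for Coq2 and 0.49 for Pdss2. None of the 12 passed 1.5-fold in the main setting, and 3 did under an alternative, a count over all alternatives and comparisons. In the authors' deposited values these were D10Ertd438e at -0.62 in AtrxdE2 (5.16% of named genes lower) and Pdss2 at 0.78 for the difference (10.2% higher). With centring on all probes it was Coq2 at 0.68 for the difference (7.52% higher).

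The genes that sense sterols and control SREBP had a median of -0.090 in AtrxdE2 and of -0.13 in AtrxdE2+TMPyP4, over 10 of 12 listed genes. Srebf2, which encodes the SREBP of sterol synthesis, was at -0.15 in AtrxdE2 and -0.20 in AtrxdE2+TMPyP4. Srebf1, the factor of fatty acid synthesis, was at 0.11 and -0.20. Rnf139, a ubiquitin ligase of this membrane, stood with Insig1 at the low end in AtrxdE2, at -0.27. The site-1 protease gene Mbtps1 was the highest there at 0.14, followed by Spfh1, now Erlin1, at 0.12. Insig2 was the highest in AtrxdE2+TMPyP4 at 0.31, and Spfh1 and Scap were the lowest at -0.26 and -0.24. The differences ran from -0.38 for Spfh1 and -0.35 for Mbtps1 to 0.27 for the site-2 protease gene Mbtps2 and 0.36 for Insig1. None of the 10 passed 1.5-fold in the main setting, and 4 did under an alternative, a count over all alternatives and comparisons. In the authors' deposited values Mbtps2, a dim probe with signals of 13.6 to 37.5, was at -1.08 in AtrxdE2 (5.16% of named genes lower) and 1.12 for the difference (10.2% higher). With the local background Scap was at -0.79 in AtrxdE2+TMPyP4 (0.66% lower) and Mbtps1 at -0.68 for the difference (1.72% lower). Insig2 was at 0.82 in AtrxdE2+TMPyP4 with centring on all probes (15.3% higher).

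Sterol uptake, transport and efflux was covered by 18 of 20 listed genes, with medians of -0.048 in AtrxdE2 and -0.0023 in AtrxdE2+TMPyP4. Stard4, a sterol carrier of the cytosol, was at -0.42 in AtrxdE2 and 0.11 in AtrxdE2+TMPyP4. The neuronal cholesterol 24-hydroxylase gene Cyp46a1 was lowest in AtrxdE2 at -0.46, but its wild-type channels differed by -0.99. At the other end in AtrxdE2, the lipoprotein receptor gene Vldlr was at 0.29 and Lip1, now Lipa, the lysosomal lipase, at 0.24. In AtrxdE2+TMPyP4 Lip1 was highest at 0.25, followed by Soat1 at 0.15, and Lrp1 and Npc1 were the lowest at -0.31 and -0.25. The differences ran from -0.45 for Lrp1 and for Vldlr to 0.53 for Cyp46a1 and 0.54 for Stard4. The 11 measured SREBP targets of fatty acid synthesis, of 12 listed, had medians of 0.014 and 0.031. Acly, which supplies cytosolic acetyl-CoA to both pathways, was their lowest in AtrxdE2 at -0.55, followed by the desaturase gene Fads2 at -0.19. Fads1 and Scd1 were the highest at 0.39 and 0.32. In AtrxdE2+TMPyP4 they ran from -0.29 for Fasn and -0.24 for Scd2 to 0.12 for Scd1 and 0.24 for Acss2, and the differences from -0.36 for Fads1 and -0.30 for Fasn to 0.24 for Fads2 and 0.40 for Acly. Neither list had a gene past 1.5-fold in the main setting, and 6 genes of each passed it under an alternative, a count over all alternatives and comparisons. A single alternative and comparison let up to 15.3% of named genes pass higher and up to 6.76% lower. In the authors' deposited values Stard4 and Acly were at -0.81 and -0.64 in AtrxdE2 (5.16% lower). For the difference Stard4 was there at 0.91 (10.2% higher) and Ch25h at -0.64 (6.65% lower). Of the 6 further genes that were to be named in any case, 3 had no probe listed.

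**Figure D5:**
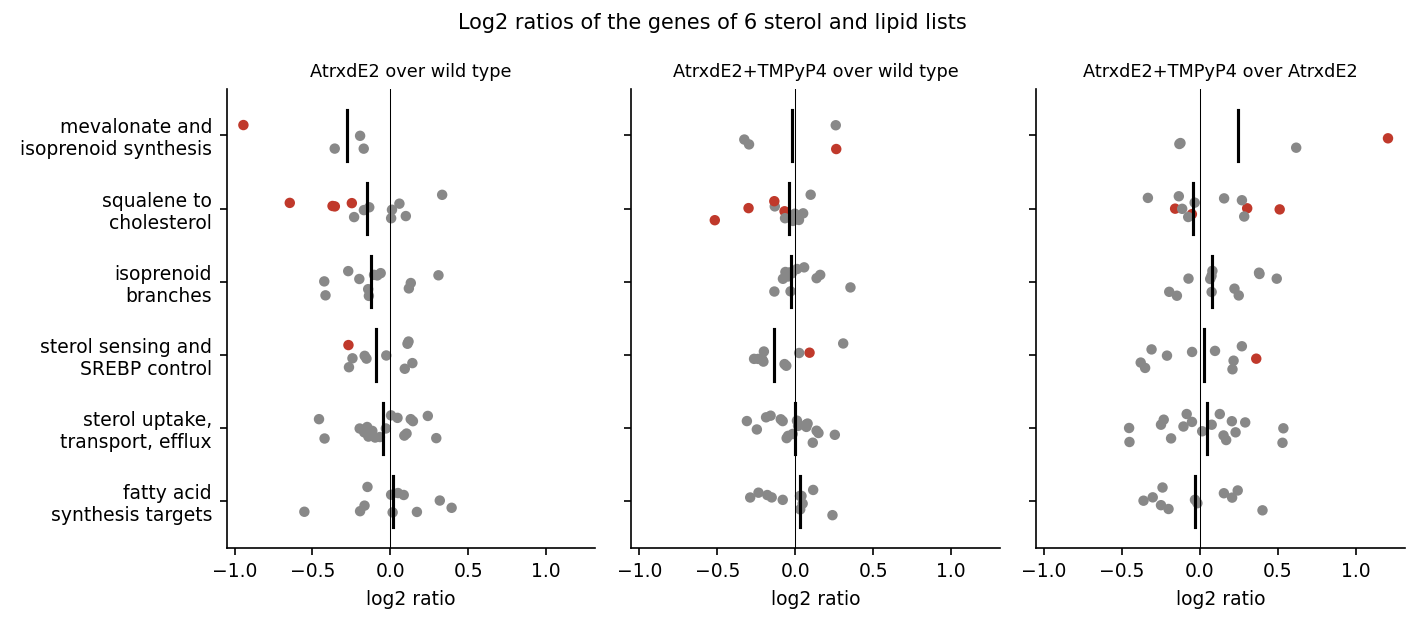
Log2 ratios of the measured genes of 6 lists in the 3 comparisons, with the 6 genes described first in red, other list genes in grey and a black line at each list's median. In AtrxdE2 over wild type the medians run from -0.28 for mevalonate and isoprenoid synthesis to 0.014 for fatty acid synthesis targets, and with centring on all probes the same medians run from -0.13 to 0.28.

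Markers of several cell types differed between the pools beside these values. All 11 measured oligodendrocyte markers were below 0 in AtrxdE2, from -1.32 for Mbp, a main protein of myelin, to -0.12 for Ugt8a, with a median of -0.50. Their summed signal was 15379 in wild type and 14369 in AtrxdE2. In AtrxdE2+TMPyP4 10 of the 11 were below 0, with a median of -0.40, and the summed signal was 14703 in wild type and 22320 in the treated pool. With centring on all probes 5 of the 11 were below 0 there and the median was 0.014. The difference of both pools was above 0 for 8 of the 11, with a median of 0.16. Their part in the ratios of the sterol genes was not tested.

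Choroid plexus markers were high in the treated pool, with all 8 measured ones past 1.5-fold against wild type, a median of 1.59 and the summed signal at 298.5 in wild type and 62455 in the treated pool. In AtrxdE2 their median was 0.025, with 151.5 in wild type and 535.5 in the mutant pool. The transport protein gene Ttr gave most of this signal. It read 44.3 in wild type and 352.6 in AtrxdE2 on the first array, a log2 ratio of 1.59, and 219.4 in wild type and 60791 in the treated pool on the second, a ratio of 6.59. The other 7 markers had ratios of -0.15 to 0.30 in AtrxdE2. They were dim, at 3.6 to 38.1 in wild type on the first array, and the offset shrinks such ratios. In the authors' deposited values these 7 ran from -1.05 for Kcne2 to 0.93 for Folr1 in AtrxdE2. The median of all 8 markers was there 0.165 in AtrxdE2 and 3.575 in AtrxdE2+TMPyP4. The part of the choroid plexus markers in the higher Idi1 and Sc5d values of the treated pool was not tested. Markers of meninges and fibroblasts had medians of 0.41 and 0.70, those of astrocytes 0.0036 and 0.11, those of neurons -0.096 and 0.033 and those of microglia -0.044 and -0.14, in AtrxdE2 and AtrxdE2+TMPyP4. Among the neuron markers Snap25, a synaptic vesicle fusion gene, was at -0.67 in AtrxdE2 and 0.59 in AtrxdE2+TMPyP4. This pair of values was chosen for mention after it was seen, and the other neuron markers did not share it. In the same order Syt1 was at -0.21 and -0.28, Tubb3 at 0.23 and 0.23 and Nefl at -0.096 and -0.019. Nef3 was at -0.0018 and 0.65, Mtap2 at -0.24 and -0.024 and Prox1 at -0.064 and 0.033. Snap25 read between 7084 and 25447 above the blank level in the 4 channels. Prox1, which marks dentate granule neurons of the hippocampus, read only 12.2 to 31.6. The microglia marker P2ry12, also picked after its values were seen, was at -0.70 in AtrxdE2 and 0.11 in AtrxdE2+TMPyP4. Its difference was 0.82, while 6 of the 8 microglia markers had a difference below 0.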

How the data were processed

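Per the file headers, the deposited scanner output gives for every spot its median intensity in Cy5 and Cy3, a local background intensity and quality marks. The authors' deposited values are log2 ratios, normalized and with the mutant as numerator per the labels. They matched log2 of Cy3 over Cy5 above the blank level with r = 0.99997 on both arrays, less 0.65 and 1.17, which settles the direction. Their background rule is not given in the sources used here.

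Intensities were corrected with limma 3.58.1 in R 4.3.3, by normexp, using the mean of the 2736 blank spots (a share of 0.05 trimmed at each end) as background and an offset of 50. Loess followed within each array, fitted without control spots, which was tested on simulated data. The offset shrinks the ratios of dim probes. A probe was measured when it was unflagged and exceeded the blank mean by over 2 SD in all 4 channels, which left 18668 of 23473. Precision is limited by the number of arrays.

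Older symbols were matched through RefSeq synonyms for 6 list genes. All 8 genes, the lists, the blank background and the fold rules were chosen with earlier results of these data known. Beside all measured genes of the set, the text names the 2 highest and 2 lowest genes of each list in a comparison and some other list genes for their function. Probe sequences were not used, so signal from related genes was not tested. Alternatives were the authors' values, other backgrounds, another offset, centring without loess, brighter probes, and a direct comparison of Cy3 channels. Centring on detected probes, the promoter window and the genes listed for a closer look were settled after values were seen.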

Additional observations from a re-analysis of the deposited data

Results flagged for a closer look

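Opposite signs over wild type in AtrxdE2 and AtrxdE2+TMPyP4 were looked for in 10 genes, namely the 6 measured genes, 3 others always named and the list gene past 1.5-fold in the difference, and 5 of the 10 had them. Among all named genes 46.7% had opposite signs, and among the 67 measured list genes 36 did, so a sign change by itself was common. With 1 array for each pool, these differences were not tested. For Idi1 the difference of treated and untreated pool was 1.21, from -0.94 to 0.26. For Ggps1 it was 0.62, from -0.36 to 0.26, and for Insig1 0.36, from -0.27 to 0.09. For Dhcr7 it was 0.16, from -0.14 to 0.02, less than the difference of -0.83 between its wild-type channels. Srebf1 went the other way, from 0.11 to -0.20, a difference of -0.31.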

How the results depend on the processing

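The 6 genes gave 132 values under alternatives, of which 18 moved by more than the wild-type spread of 0.27 log2 units. A change of sign was counted only where the main value was past 1.5-fold, and 0 were found. That rule covers only Idi1 and Sc5d in AtrxdE2 and Idi1 in the difference. Smaller values of Fdft1, Sqle, Sc5d and Cyp51 did change sign, as given above. The cause of these shifts was not tested. No paired analysis was possible because each comparison has 1 array. With 1 array for each pool, no replicate could be left out. Dye cannot be told apart from mutant against wild type, and array cannot be told apart from treated against untreated. Both mutant pools carried Cy3, so the dye was the same for the treated and the untreated pool. Each of the 6 genes has 1 probe, so taking the brightest probe could change nothing, although these values are among the 132. Probes near the blank level bear the widest error, and the offset of 50 shrinks their ratios.

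In AtrxdE2+TMPyP4 the median of the 6 genes was 0.33 with centring on all probes and 0.19 with centring on detected probes. With centring on all probes the list medians there were 0.34 for mevalonate and isoprenoid synthesis, 0.35 for squalene to cholesterol, 0.43 for the isoprenoid branches, 0.26 for SREBP control and 0.44 for fatty acid synthesis targets. Centring on detected probes gave 0.29 for the branches. For the difference of treated and untreated pools, centring on all probes gave 0.28 for fatty acid synthesis targets, and the local background gave 0.24 for squalene to cholesterol. Among brighter probes the mevalonate and isoprenoid list, then few genes, had medians of 0.26 in AtrxdE2+TMPyP4 and 0.62 for the difference.

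Counts of probes moved in 61 of 84 cases. For AtrxdE2 over wild type, 12 probes were higher and 4 lower by 2-fold, and 115 higher and 127 lower by 1.5-fold. Plain subtraction gave 181 and 170 by 2-fold and 924 and 986 by 1.5-fold, and the authors' deposited values 219, 148, 971 and 972. The local background gave 24, 23, 176 and 271, and the smaller offset 28, 15, 313 and 286. Centring on all probes gave 27 higher by 2-fold and 578 higher and 32 lower by 1.5-fold, and centring on detected probes 364 and 56 by 1.5-fold.

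For AtrxdE2+TMPyP4 over wild type, 27 probes were higher and 13 lower by 2-fold, and 167 higher and 105 lower by 1.5-fold. Plain subtraction gave 263, 166, 940 and 727 in that order, the authors' deposited values 311, 144, 1056 and 691, and the smaller offset 64, 32, 355 and 189. The local background gave 447 higher by 2-fold and 1137 by 1.5-fold. Centring on all probes gave 211, 0, 2764 and 32. Centring on detected probes gave 91 higher and 1 lower by 2-fold and 1284 higher by 1.5-fold. Among probes above the median signal 15 were higher by 2-fold.

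For the treated over the untreated pool, 40 probes were higher and 49 lower by 2-fold, and 394 higher and 281 lower by 1.5-fold. Plain subtraction gave 575, 480, 1885 and 1541, the authors' deposited values 576, 468, 1937 and 1520, and the smaller offset 105, 136, 871 and 638. Higher by 2-fold and by 1.5-fold were 601 and 1560 with the local background, 143 and 1347 with centring on all probes, and 89 and 845 with centring on detected probes.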
